A study of Mus musculus with 6 samples.

Results

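The genes described are 8 surface receptor genes of myeloid cells: Pirb, Pira2 and Gm14548 of the paired immunoglobulin-like receptors (Pir), Cd33, Siglece, Siglec1 and Siglecg of the sialic acid-binding lectins (Siglecs), and Pilra of the paired immunoglobulin-like type 2 receptors (Pilr). They were picked by name, and they were picked because they were higher in E531R than in WT in these same libraries, so their levels and differences are a description and carry no test. All 8 names were found among the 47593 gene rows. RNA-seq was done on marrow cells of mouse femurs, selected for the surface receptor c-Kit, a marker of blood stem and progenitor cells. All cells carried an MSCVneo retrovirus with the leukaemia fusion MLL-AF9, were selected with the antibiotic G418 and were passaged serially in methylcellulose with cytokines. In the 3 WT libraries the AF9 part of the fusion was unchanged, and in the 3 E531R libraries it carried the E531R substitution, which the series describes as ending the binding of AF9 to the corepressor BCOR. Both groups therefore share the fusion, the virus and the culture, and cells without the fusion were not analysed here. The labels do not give the strain, age, number of mice or culture time, nor whether replicates were separate cultures, so a p-value here covers only the spread among these libraries, and that spread may be technical.

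Paired receptors are families in which near relatives send opposite signals. Inhibitory members such as PIR-B and PILRα carry tyrosine motifs in their tails that recruit the phosphatases SHP-1 (gene Ptpn6) and SHP-2 (gene Ptpn11), while activating members such as the PIR-A proteins and PILRβ lack such a tail and signal through the adaptors FcRγ (gene Fcer1g) or DAP12 (gene Tyrobp). PIR-B binds MHC class I, Siglecs bind sialic acid on glycans, and on monocytes, macrophages and neutrophils these receptors are known for setting the threshold of activation.

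The libraries held between 14161139 and 33459668 reads assigned to genes. WT replicate 3 stood apart: the median absolute log2 difference between its genes and those of WT replicates 1 and 2 was 0.31 and 0.33, against 0.08 between WT replicates 1 and 2 and 0.07 to 0.09 between E531R libraries. Levels are given as normalised read counts, which are read counts divided by 1 size factor per library.

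The Pir genes are related, and their first coding bases are nearly the same, which does not hold over their whole length. The first 90 bases of the longest coding sequence in GENCODE M21 are given 5′ to 3′, in lower case, with capitals where a gene differs from Pirb.

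Pirb: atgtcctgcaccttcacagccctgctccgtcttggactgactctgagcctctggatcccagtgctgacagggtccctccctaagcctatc
Pira2: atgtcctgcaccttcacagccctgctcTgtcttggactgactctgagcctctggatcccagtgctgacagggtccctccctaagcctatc
Gm14548: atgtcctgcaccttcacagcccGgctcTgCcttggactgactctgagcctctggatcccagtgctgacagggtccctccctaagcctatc
Lilra6: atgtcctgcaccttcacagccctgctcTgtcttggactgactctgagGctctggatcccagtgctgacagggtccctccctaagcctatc

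Counted from 1 at the first base, with the Pirb base first, Pira2 differed by C28T, Gm14548 by T23G, C28T and T30C, and Lilra6 by C28T and C48G. Over whole transcripts, 93.0% of the 50-base stretches of Pira2 and 71.2% of those of Gm14548 were also found in another gene, the closest being Gm15922 and Pira2. The share was 34.0% for Pirb, 31.3% for Lilra6 and 20.8% for Pilra. It was 4.64% for Siglecg, 1.33% for Siglec1, 0.458% for Cd33 and 0% for Siglece. Reads from shared stretches cannot be assigned to a single gene, and the read length and the rule for such reads are not given, so the levels of Pira2, Gm14548 and Pirb are uncertain to differing degrees. At this length the 4 Siglecs share little or no sequence.

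**Figure D1:**
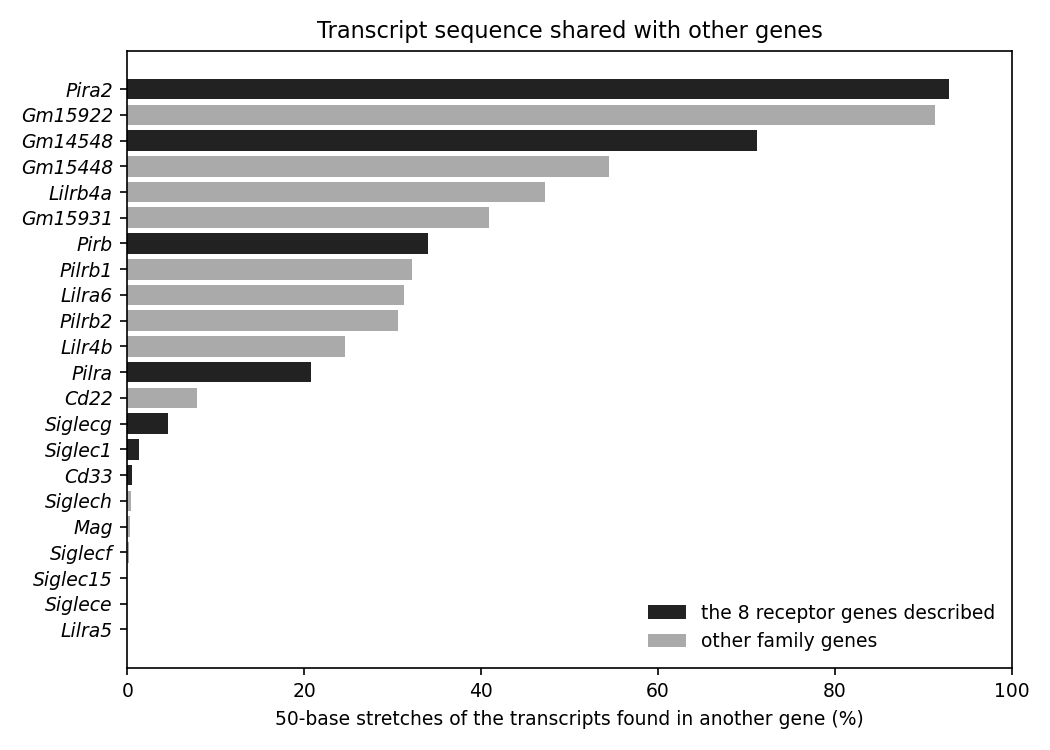
Share of each gene's 50-base transcript stretches found in the transcripts of any other gene (x axis, percent), with 1 bar per gene, black for the 8 receptor genes described and grey for other genes of the 3 families. Pira2 reaches 93.0%, Gm14548 71.2% and Siglece 0%.

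The regions before the start sites are shown for 5 of the genes because they hold the letters the genes have in common. Promoters of 7 of the 8 genes were matched in RefSeq on GRCm38.p6 (Siglec1 was not matched), and the 250 bases before the start were searched on both strands. The RefSeq start used for Cd33 lies inside the gene as GENCODE gives it (43524216 to 43544428). Its window therefore precedes an internal start. Capitals mark GAGGAA or its reverse complement, the core that Ets factors such as the myeloid factor PU.1 can bind.

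Pirb, chr7:3720383-3720632, minus strand: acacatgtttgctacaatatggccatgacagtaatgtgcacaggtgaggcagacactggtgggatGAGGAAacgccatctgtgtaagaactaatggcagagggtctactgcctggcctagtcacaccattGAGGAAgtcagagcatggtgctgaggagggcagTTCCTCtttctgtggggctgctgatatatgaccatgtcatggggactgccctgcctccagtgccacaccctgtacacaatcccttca
Gm14548, chr7:3898142-3898391, minus strand: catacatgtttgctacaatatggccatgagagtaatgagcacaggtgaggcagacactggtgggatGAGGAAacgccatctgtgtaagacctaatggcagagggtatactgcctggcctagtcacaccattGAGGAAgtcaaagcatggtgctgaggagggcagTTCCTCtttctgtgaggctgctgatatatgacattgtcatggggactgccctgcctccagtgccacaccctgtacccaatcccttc
Siglece, chr7:43660162-43660411, minus strand: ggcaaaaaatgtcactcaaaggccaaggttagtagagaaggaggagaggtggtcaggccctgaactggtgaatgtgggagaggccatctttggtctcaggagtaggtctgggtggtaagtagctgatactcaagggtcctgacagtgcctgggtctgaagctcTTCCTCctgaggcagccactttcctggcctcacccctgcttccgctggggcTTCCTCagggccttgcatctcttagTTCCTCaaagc
Cd33, chr7:43533172-43533421, minus strand: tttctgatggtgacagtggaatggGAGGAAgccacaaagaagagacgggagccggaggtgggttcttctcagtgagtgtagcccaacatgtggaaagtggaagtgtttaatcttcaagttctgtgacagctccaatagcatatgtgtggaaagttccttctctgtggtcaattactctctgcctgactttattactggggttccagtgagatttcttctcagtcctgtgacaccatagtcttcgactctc
Pilra, chr5:137836279-137836528, minus strand: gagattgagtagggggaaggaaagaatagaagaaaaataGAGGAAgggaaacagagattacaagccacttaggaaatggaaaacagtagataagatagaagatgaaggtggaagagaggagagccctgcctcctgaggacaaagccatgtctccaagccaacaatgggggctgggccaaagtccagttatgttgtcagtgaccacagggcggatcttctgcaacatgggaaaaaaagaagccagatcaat

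GAGGAA was found in 7 of 7 of these windows and in 23.1% of the windows of 27025 genes. Pirb, Pira2, Gm14548 and Siglece had 3 matches each, Siglecg had 2, within a pyrimidine-rich run, and Cd33 and Pilra had 1 each. The 7 windows are not separate observations. In the best ungapped alignment of the 300-base promoters, Pirb matched Pira2 at 97.1% of 272 bases and Gm14548 at 96.0% of 299 bases. The other motifs searched were less widely held: the RUNX-type TGTGGT in Cd33 and Pilra (14.2% of all windows), the C/EBP-type TTGCNNAA in Pilra (9.55%) and the AP-1-type TGANTCA in 0 of 7 (6.87%). Matches of different motifs did not overlap. The 4 motifs were chosen after these sequences had been seen. Among the relatives searched, GAGGAA was found in Lilra6, Gm15448, Lilra5, Mag and Siglecf but not in Cd22, Lilr4b, Siglech, Pilrb1 or Pilrb2. Cd22 and Lilr4b were higher in E531R, with log2 fold changes of 3.26 and 2.96. The RefSeq start used for Cd22 also lies inside the gene as GENCODE gives it (30865402 to 30880342). Its window precedes an internal start and says nothing of the bases before the GENCODE start. Whether the motif goes with the difference was not tested. Promoters of Pilrb1 and Pilrb2 matched that of Pilra at 98.4% and 99.2% of 246 bases. Their windows start further downstream in the shared sequence, past the GAGGAA of Pilra, and say nothing of whether they have it too.

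Of the Pir genes, the inhibitory receptor gene Pirb had the most reads. Pirb (chromosome 7, 3711409 to 3720391, GRCm38, minus strand) had normalised read counts of 27.1, 29.9 and 30.7 in WT replicates 1 to 3 and 419, 437 and 400.1 in the E531R replicates. The libraries of each group lay close together, and the groups were far apart, with means of 29.2 ± 1.86 and 419 ± 18.4 (SD, n = 3 each) and a 14.3-fold difference. Its log2 fold change on the log2(value + 1) scale was 3.80 (SE 0.11).

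Pira2, an activating receptor gene (chromosome 7, 3836812 to 3845051), had 1.60, 3.44 and 2.36 in WT and 51.4, 52.6 and 55.5 in E531R. The WT values rest on 7 reads in all, so the 20.9-fold ratio of summed reads has an exact 95% counting interval from 9.96 to 52.8. Gm14548 (chromosome 7, 3884242 to 3898120), a protein-coding gene of the same cluster, had 7.98, 6.89 and 11.0 in WT and 82.0, 88.6 and 62.3 in E531R. The ratio of summed reads was 8.65 (interval 5.74 to 13.6), and its E531R replicate 3 was the lowest of that group but well above every WT library. Pirb took 47.3% ± 7.42 of the summed values of the 7 Pir genes with reads (Pirb, Pira2, Gm14548, Gm15448, Gm15922, Gm15931 and Lilra6) in WT and 51.7% ± 0.491 in the E531R libraries (SD, n = 3 each). The E531R shares, 51.1% to 52.1%, lay within the WT range of 40.0% to 54.8%, and the shared sequence makes the split uncertain.

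The 4 Siglec genes differed from each other both in level and in the size of the difference. Cd33, the myeloid lectin used as a marker of myeloid cells (chromosome 7, 43524216 to 43544428), was the most abundant, with 3624, 3746 and 2565 in WT and 5065, 5430 and 5046 in E531R. The groups did not overlap, but WT replicate 3 was low. The means were 3312 ± 649 and 5180 ± 217 (SD, n = 3 each), a 1.56-fold difference and a log2 fold change of 0.66 (SE 0.15). Without WT replicate 3 the log2 fold change was 0.49.

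Siglece, an inhibitory Siglec of neutrophils and macrophages (chromosome 7, 43651070 to 43660161), had 35.1, 36.7 and 52.0 in WT and 224, 192 and 245 in E531R. WT replicate 3 was here the highest of its group, opposite to Cd33. The means were 41.3 ± 9.29 and 220.5 ± 27.0, a 5.34-fold difference (log2 fold change 2.40, SE 0.19). No exact 50-base stretch of Siglece occurred in the transcripts of another gene, so no copy limit was seen at that length. Shorter or inexact matches were not searched.

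Siglec1, or sialoadhesin, a large adhesion receptor of tissue macrophages (chromosome 2, 131069220 to 131086765), was close to silent in WT, with 0, 1.15 and 2.36, and had 29.9, 20.4 and 35.0 in E531R. The WT libraries held 4 of its reads and the E531R libraries 100, a ratio of 19.8 with a counting interval from 7.50 to 74.1. Siglecg, an inhibitory Siglec best known from B cells (chromosome 7, 43408204 to 43418358), had 9.58, 5.74 and 8.66 in WT and 16.7, 16.5 and 13.6 in E531R. These values come from 22 and 55 reads, the ratio was 1.98 (interval 1.19 to 3.41), and the gene did not pass in the fit over all genes (limma log2 fold change 0.91, SE 0.28, adjusted p = 0.0654; 0.0309 without WT replicate 3). Siglecg was the 1 gene of the 8 that did not pass.

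Pilra, the inhibitory member of the Pilr pair (chromosome 5, 137821952 to 137836281), had 635, 666 and 779 in WT and 1829, 1752 and 1857 in E531R. All E531R libraries were above all WT libraries, with means of 694 ± 75.9 and 1813 ± 54.7 (SD, n = 3 each), a 2.61-fold difference and a log2 fold change of 1.39 (SE 0.093). Its exons overlap 468 bases of Zcwpw1 on the opposite strand, and whether reads were counted by strand is not given. Zcwpw1 itself was low, at 18.0 ± 1.35 in WT against 25.4 ± 2.73 in E531R.

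**Figure D2:**
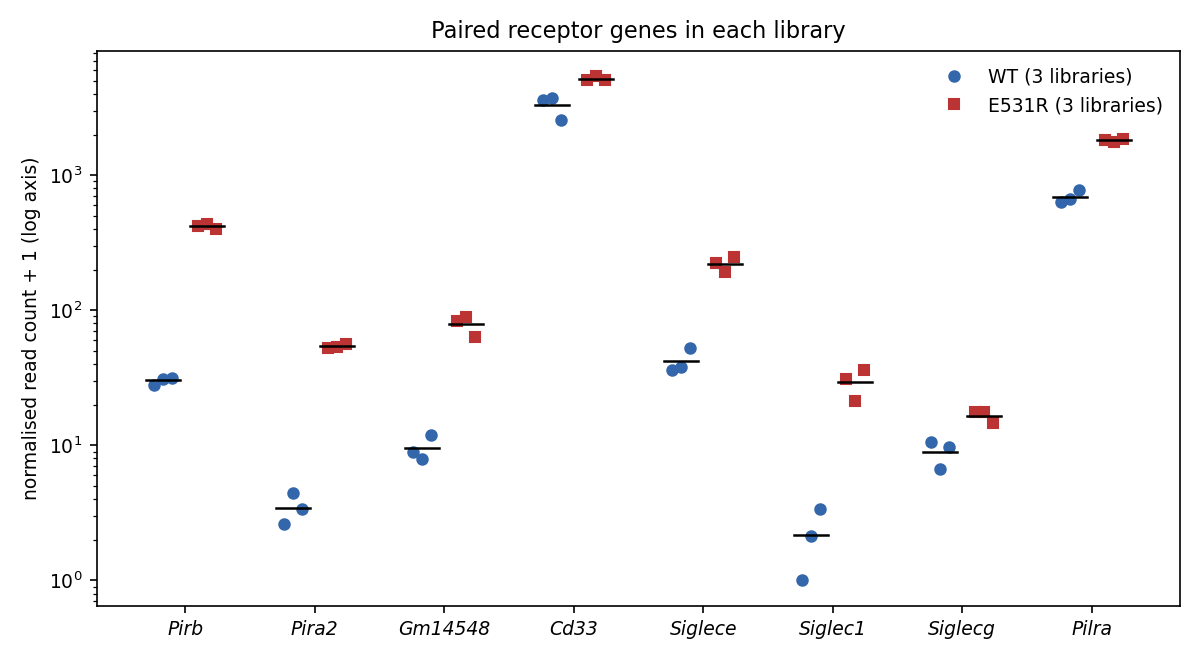
Normalised read count plus 1 on a log y axis for the 8 receptor genes, each library as a point, WT as blue circles and E531R as red squares, and a short line marking each group's mean. In each gene the 3 red points lie above the 3 blue ones, from a small gap in Siglecg (highest WT value 9.58, lowest E531R value 13.6) to a wide one in Pirb (30.7 and 400.1).

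In all 8 genes the 3 E531R values lay above the 3 WT values, as they did in 21.2% of the 12991 genes tested (the reverse order held in 22.8%), and 7 of the 8 (8 without WT replicate 3) were called higher with limma at an adjusted p under 0.05, against 10.4% of tested genes. Nothing is read from these counts, since the genes were chosen for this difference. All 8 passed the minimum mean of 10 over the 6 libraries, but Pira2, Gm14548, Siglec1 and Siglecg, 4 of the 8, had WT means under 10 and passed through their E531R values. The authors' deposited table also called 7 of the 8, where it called 7.91% of its genes higher in E531R, and gave Siglecg an adjusted p of 0.292. On the recovered reads edgeR and DESeq2 each called 7 of the 8, against 10.7% and 7.76% of the genes they tested. The Cd33 call was lost without E531R replicate 1, 2 or 3 (limma adjusted p = 0.0741, 0.0894 and 0.0748). The differences of the lowest genes depend on the pseudocount: at 10 the log2 fold change was 2.23 for Gm14548 and 1.77 for Siglec1, against 3.04 and 3.90 at 1.

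Per kilobase of exon, the order of the 8 genes was nearly the same in both groups. In WT the normalised read count per kilobase was 426 ± 83.6 for Cd33, 224 ± 24.6 for Pilra and 22.3 ± 5.03 for Siglece (SD, n = 3 each). Pirb followed with 6.54 ± 0.417, Gm14548 with 4.06 ± 1.01 and Siglecg with 1.66 ± 0.417, and Pira2 and Siglec1 were lowest with 0.713 ± 0.268 and 0.164 ± 0.165. No neighbours in this order overlapped. The exon length includes stretches shared with other genes, so the places of Pirb, Gm14548 and Pira2 are uncertain in both groups. In E531R Cd33 had 667 ± 27.9 and Pilra 587 ± 17.7 per kilobase, which brought them closer together. Siglece had 119 ± 14.6, Pirb 93.6 ± 4.12, Gm14548 36.5 ± 6.42 and Pira2 15.4 ± 0.606. Siglec1 (3.98 ± 1.04) and Siglecg (3.25 ± 0.359) came last, and these 2 were the only neighbours in the E531R order whose libraries overlapped. Cd33 made up 61.7% ± 7.74 of the per-kilobase sum of the 8 genes in WT, against 43.7% ± 1.71 in E531R. In bulk RNA, fewer cells of a type and less RNA per cell cannot be told apart, here or in any result that follows.

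The relatives that were not picked were measured in the same way. The table held 14 other Pir, Lilr, Siglec and Pilr genes, of which 10 could be tested, and 10 were higher and 0 lower in E531R with limma, where 10.4% and 9.53% of all tested genes were. Gm15448, Gm15931 and Cd22, 3 of the 10, passed the minimum mean only through their E531R values, and relatives that share sequence with the 8 genes are not separate observations.

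Within the Pir cluster, Lilra6, listed by RefSeq with the synonym Pira3, rose from 13.1 ± 6.57 to 107 ± 7.99 (SD, n = 3 each), or by 3.06 on the log2 scale (limma adjusted p = 0.00128). The pseudogene Gm15931, which lies apart from the others on the plus strand, rose from 5.70 ± 3.11 to 104 ± 2.36 (log2 fold change 4.07, limma adjusted p = 0.000228). Gm15448 had 3 reads in WT and 112 in E531R, a ratio of 29.6 with a counting interval from 9.86 to 146. Gm15922, whose sequence is nearly that of Pira2, was below the minimum mean, with 2.73 ± 0.993 and 16.4 ± 2.42. Lilra5 had 0 reads in WT and 8 in E531R. The Lilr pair on chromosome 10 also rose: the inhibitory receptor gene Lilrb4a went from 365 ± 109.7 to 2126 ± 52.4 and its relative Lilr4b from 98.6 ± 45.2 to 706 ± 60.9 (limma adjusted p = 0.000292 and 0.00162). In both, WT replicate 3 was the lowest library, with 239 and 46.5. Of the 50-base stretches of Lilrb4a and Lilr4b, 47.2% and 24.5% were also found in another gene, and the pair share sequence with each other. The exons of Lilrb4a overlap 1846 bases of another gene on the same strand. Their levels are therefore uncertain, and the 2 rises are not separate observations.

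Among other Siglecs, the eosinophil receptor gene Siglecf rose from 55.3 ± 8.79 to 132 ± 7.39 (log2 fold change 1.25, limma adjusted p = 0.00143). Mag, the myelin Siglec and a ligand of PIR-B, rose from 197 ± 47.3 to 333 ± 40.5 (log2 fold change 0.77, limma adjusted p = 0.026). Its call was lost when any one of WT replicates 1 and 2 and E531R replicates 1, 2 and 3 was left out (limma adjusted p = 0.0854, 0.071, 0.0963, 0.0566 and 0.111). Cd22, the B cell Siglec, had 0, 1.15 and 3.94 in WT and 17.4, 21.4 and 21.4 in E531R (limma adjusted p = 0.00831). The dendritic cell gene Siglech had 1 read in all 6 libraries and Siglec15 had 0.

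The activating genes of the Pilr family were higher in E531R by smaller log2 fold changes than Pilra. Pilrb1 rose from 170.4 ± 25.7 to 324 ± 7.11 and Pilrb2 from 187 ± 10.8 to 366 ± 5.07 (SD, n = 3 each; log2 fold changes 0.94 and 0.97, limma adjusted p = 0.00257 and 0.000375), against the log2 fold change of 1.39 given for Pilra, a gap that was not tested. Per kilobase of exon, Pilra made up 52.0%, 57.2% and 56.2% of the Pilr sum in WT and 62.6%, 61.8% and 63.0% in E531R. The E531R shares were all above the WT shares, but no test was made, since Pilra was chosen for its difference.

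**Figure D3:**
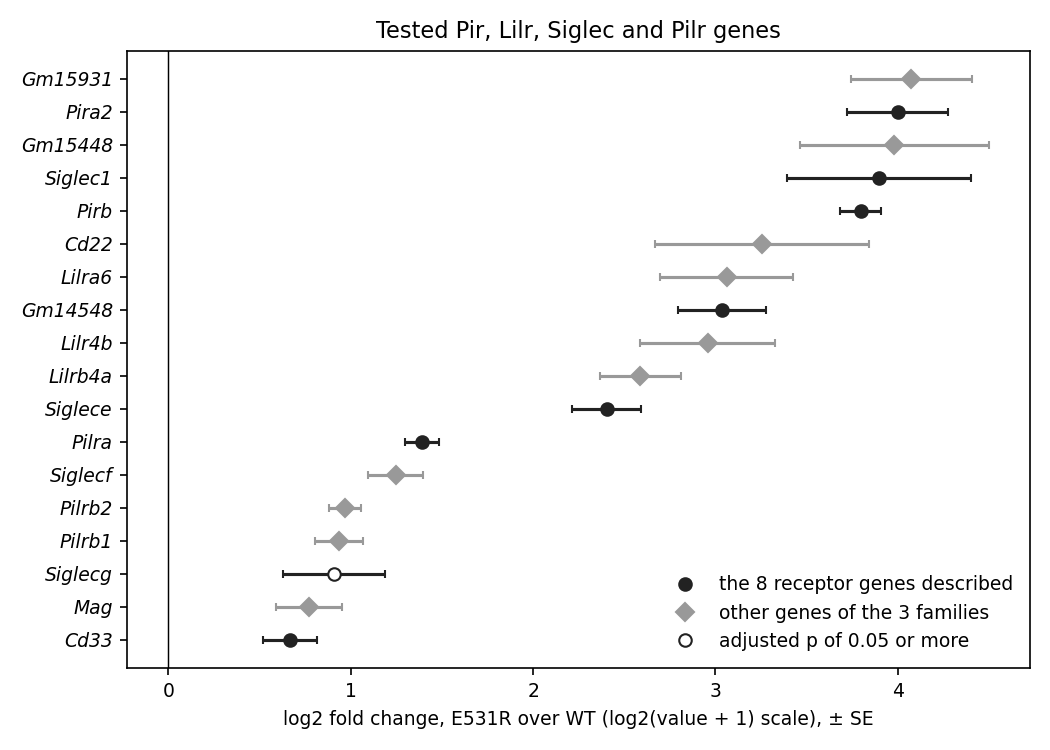
Log2 fold change, E531R over WT, of value + 1 (x axis) for the tested genes of the 3 families, with bars of 1 SE from limma; black circles are the 8 receptor genes described, grey diamonds the other family genes, and an open symbol did not pass the threshold. All points lie to the right of 0, from Cd33 at 0.66 to Gm15931 at 4.07.

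Several signalling partners of these receptors were higher in E531R. Of 19 tested adaptor, kinase and phosphatase genes 7 were higher and 0 lower, with a median log2 fold change of 0.24 against 0.01 over all tested genes. Without WT replicate 3, 15 were higher and 1 lower, while the shares over all genes went from 10.4% higher and 9.53% lower to 24.3% and 23.1%. The Src-family kinase gene Fgr rose from 21.2 ± 8.93 to 304 ± 7.83 (SD, n = 3 each; limma adjusted p = 0.000105). Lyn, the kinase of the same family that phosphorylates inhibitory tails, rose from 2149 ± 90.9 to 2853 ± 56.4 (log2 fold change 0.41, limma adjusted p = 0.00466). Tyrobp rose from 1849 ± 378 to 3292 ± 129 (log2 fold change 0.85, limma adjusted p = 0.00553). The 3 genes that follow were picked with their values in view. The phosphatase gene Ptpn6 rose from 4675 ± 687 to 7339 ± 197 (limma adjusted p = 0.0056). The adaptor gene Fcer1g had 2856 ± 278 and 3401 ± 122, and the phosphatase gene Ptpn11 had 5531 ± 388 and 6177 ± 81.8, and neither passed (limma adjusted p = 0.0888 and 0.179). Both passed without WT replicate 3, by 0.33 and 0.22 on the log2 scale (limma adjusted p = 1.74e-05 and 7.95e-05).

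Most other paired receptors of the immunoglobulin superfamily were higher in E531R. Of 22 tested, 16 were higher and 1 lower, where 10.4% and 9.53% of all tested genes were. The median log2 fold change was 1.03. Of the 22, 5 had WT means under 10 and passed the minimum mean only through E531R, and these 5 were among the 16. Cd300lf, an inhibitory receptor, rose from 378 ± 33.0 to 1885 ± 85.8, and Trem2, an activating lipid receptor that uses DAP12, from 19.8 ± 6.29 to 252 ± 26.8 (SD, n = 3 each; limma adjusted p = 1.05e-05 and 0.000112). Treml2 rose from 1155 ± 28.6 to 2033 ± 56.1, and the high-affinity IgG receptor gene Fcgr1 from 74.6 ± 11.2 to 498 ± 31.6 (limma adjusted p = 0.000187 and 2.79e-05). The member that fell was Fcgr3, a low-affinity IgG receptor gene singled out after its values were seen, from 2143 ± 267 to 1447 ± 75.4 (limma adjusted p = 0.0089). That call was lost without E531R replicate 2 (limma adjusted p = 0.0522).

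Genes for ligands and for making or trimming sialic acid showed no common direction. Of 30 tested, 8 were higher and 3 lower, where 10.4% and 9.53% of all genes were. Mag, among the 8, was also counted with the Siglecs. The median log2 fold change of the 30 was -0.16. Without WT replicate 3, 11 were higher and 11 lower (24.3% and 23.1% of all genes), and 4 were higher when WT replicate 1 or any 1 E531R library was left out (6.30% to 7.89% of all genes). B2m, the light chain of MHC class I, rose from 3564 ± 31.7 to 5451 ± 147 (SD, n = 3 each; limma adjusted p = 0.000511), and the class I heavy chain gene H2-Q7 from 5.89 ± 3.15 to 46.4 ± 9.75 (limma adjusted p = 0.00174; it passed the minimum mean only through E531R). The classical heavy chain genes H2-K1 and H2-D1, singled out after their values were seen, did not pass (log2 fold change -0.37 and -0.04, limma adjusted p = 0.0768 and 0.827). Without WT replicate 3 both passed in opposite directions, at -0.24 and 0.10 (limma adjusted p = 5.32e-05 and 0.0357). Near-identical class I genes share reads, so single members are uncertain. St3gal1, a sialyltransferase gene, rose from 676 ± 40.4 to 961 ± 35.1 (limma adjusted p = 0.00396). Rtn4r, which encodes the Nogo receptor and so shares a ligand with PIR-B, fell from 83.9 ± 5.07 to 25.8 ± 5.93 (limma adjusted p = 0.00108).

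Markers of the cell types in which these receptors are best known moved with them in part. Of 16 tested macrophage and monocyte markers 13 were higher and 2, Vcam1 and Ccr2, lower. Over all tested genes 10.4% were higher and 9.53% lower, which also stands beside the lists that follow. Of these 16 markers, 3 had 1 group mean under 10, and Fcgr1 was also counted among the paired receptors. The summed normalised read count of the 22 listed genes was 31307 to 36819 in WT and 43664 to 47500.2 in E531R. Mpeg1, Itgam and Cd68 had log2 fold changes of 3.25, 1.45 and 2.32, while Vcam1, a defining gene of marrow macrophages, fell from 704 ± 24.6 to 85.8 ± 9.75 (SD, n = 3 each; limma adjusted p = 9.01e-06). Timd4 was at 0 in all libraries, the group means of C1qa, C1qb and C1qc did not exceed 0.556, and Spic had 0 in WT and 3.61 ± 1.97 in E531R, all defining genes of the resident macrophages that carry Siglec1. Of 17 tested neutrophil markers 15 were higher and 1, Padi4, lower, with sums of 191914 to 238041 in WT and 343651 to 358944 in E531R. Of the 17, 1 had 1 group mean under 10. The 4 with the smallest adjusted p, S100a9, Chil3, Ltf and Itgb2l, had log2 fold changes of 3.93, 5.19, 4.37 and 3.26. Padi4 and Ccr2, singled out after their values were seen, had log2 fold changes of -2.80 and -2.29 in the authors' comparison. The authors' values come from DESeq2, are given here as E531R over WT, and are not on the scale of the limma values. The part of either cell type in the receptor differences was not tested.

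For B cells, in which Siglecg and Cd22 are best known, 2 of 14 markers could be tested: 1 was higher, Cd22 itself, and Cd79b had 89.7 ± 17.2 in WT and 58.2 ± 6.07 in E531R and did not pass (limma adjusted p = 0.0546; 0.0333 without WT replicate 3). The summed count was 101 to 131 in WT and 93.5 to 98.0 in E531R. Ms4a1, Ebf1, Blk, Fcmr and Rag1 were at 0 in all libraries. Of 5 tested eosinophil, basophil and mast cell markers, Ear2 and Siglecf were higher and Mcpt8 and Gata2 lower, with sums of 346 to 409 in WT and 723 to 873 in E531R (332 to 394 and 313 to 362 without Ear2), and the eosinophil granule genes Epx and Prg2 had means of at most 2.50. Of 7 tested dendritic cell markers, Itgax and Cd74 were higher and Flt3 and H2-Ab1 lower, with sums of 4062 to 4088 in WT and 3978 to 4345 in E531R, and Ly6d and Cd209a at 0. Each of those 4 genes had a mean under 10 in the group where it was low and passed the minimum mean only through the other group. Of 3 tested T and NK cell markers, Il7r was higher (its WT mean was under 10, so it passed the minimum mean only through E531R), Nkg7 was lower and Lck did not pass, with sums of 797 to 1020 in WT and 484 to 519 in E531R and 9 genes at 0, among them Cd3e, Cd4, Cd8a and Ncr1.

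**Figure D4:**
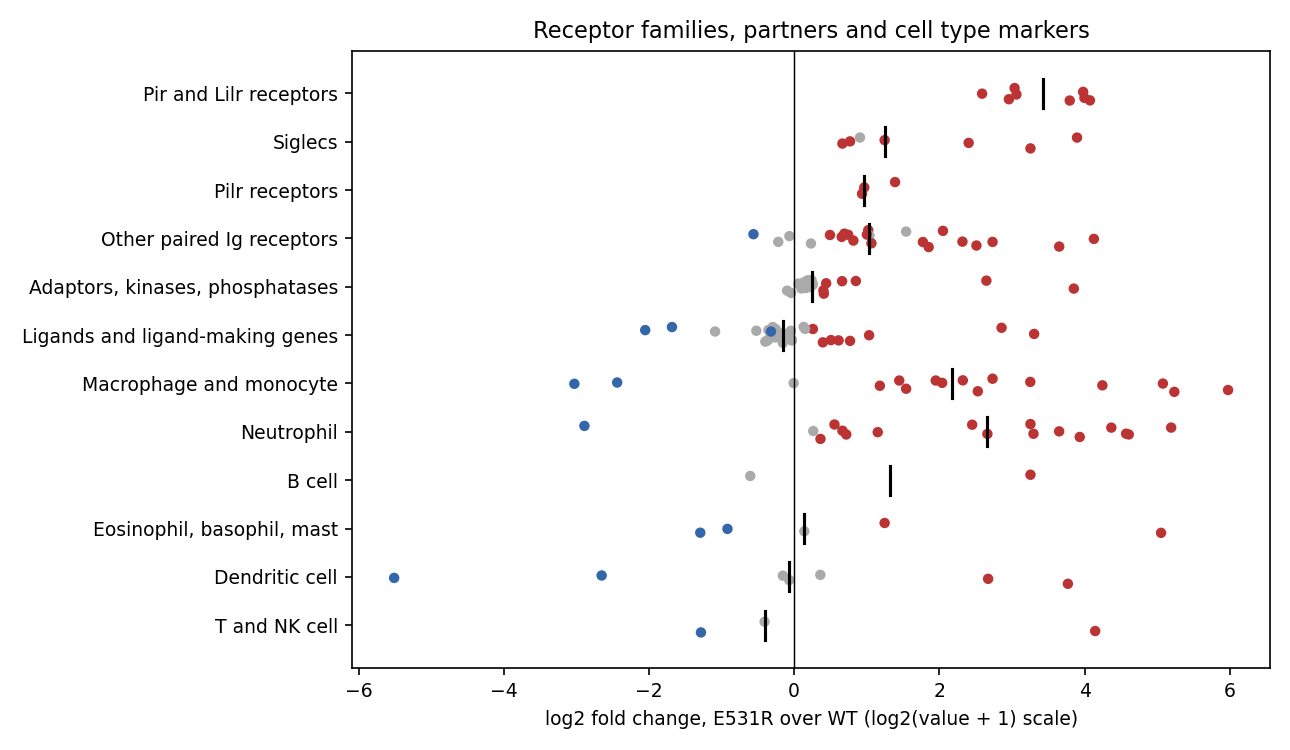
Each point is a tested gene of 1 of 12 lists (rows), placed by the log2 fold change, E531R over WT, of value + 1; red points were higher and blue points lower at a limma adjusted p under 0.05, grey points did not pass, and a black tick gives the median per row. These ticks sit at 3.43 for Pir and Lilr, 1.25 for Siglecs, 0.97 for Pilr, 0.24 for signalling partners and -0.16 for ligands; the first 3 rows hold the 8 receptor genes, which were chosen for being higher.

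The genes most like the 8 receptors over the 6 libraries were C5ar1, Ffar2, Cish, Clec4n and P2ry14. They were ranked by Pearson's r with the mean of the centred log2 values of the 8 genes, among 9242 named genes with a mean of at least 100 outside the lists, and r ran from 0.9994 to 0.9998. The 6 points fall into the 2 groups, so these values mostly restate the difference between groups. C5ar1, the receptor of complement fragment C5a, averaged 87.3 ± 19.1 in WT against 1262 ± 59.6 in E531R (SD, n = 3 each), and Clec4n, the lectin receptor dectin-2, had 37.1 ± 11.5 and 1544 ± 186. The fatty acid receptor gene Ffar2 had 348 ± 28.2 and 1266 ± 51.7, the cytokine feedback gene Cish 886 ± 49.1 and 1579 ± 18.5, and the nucleotide receptor gene P2ry14 46.7 ± 7.73 and 511 ± 32.4.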

How the data were processed

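Of tools, the submitters' processing notes name HISAT2, featureCounts, DESeq2, cutadapt, SAMtools and FastQC, and of builds GRCm38. Annotation release and strand setting are not given. The deposited values are a signal, gene read counts that the authors divided by 1 size factor per library. Dividing each library by its lowest nonzero value gave whole reads (100% of values within 0.001 reads). From the authors come also a log2 fold change (WT over E531R, its sign turned here), its p-value and adjusted p-value, and a Wald score that was not used.

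E531R was tested against WT with limma 3.58.1 (R 4.3.3) on log2(value + 1), with an intensity trend, two-sided, over the 12991 genes with a mean of at least 10, with Benjamini-Hochberg adjustment over all of them and a threshold of 0.05, and was tested on simulated data. On the recovered reads edgeR 4.0.16 called 1393 genes higher and 1251 lower, and DESeq2 1.42.0 called 1293 and 1223. Size factors would hide a shift shared by all genes. Ratios of summed reads have exact conditional 95% intervals, which cover counting error only.

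The 8 genes and the 12 lists (224 names, 209 in the table) were chosen with earlier results of these data known. Besides the 8 genes, the text names the other family genes, up to 4 genes with the smallest adjusted p per list, and the 5 most similar genes; some genes that this rule names are not reported here. Lists are described by counts and medians, without a set test. Positions and transcripts come from GENCODE M21 and promoters from RefSeq, both on GRCm38; 45217 symbols matched GENCODE. Alternatives were other pseudocounts, filters, scalings and tools, a replicate block, and leaving out each library.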

Additional observations from a re-analysis of the deposited data

How the results depend on the processing

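Under other pseudocounts, filters, TMM or upper-quartile rescaling, edgeR, DESeq2 and the replicate block, 61 tested genes (48 at a mean of at least 50) kept their direction and their side of the threshold. They include all tested genes named in the text but Ccr2, Padi4, Mrc1, Msr1, Marco, Mertk and Adgre1. Of the 8 receptor genes, 4 were called higher at a mean of at least 50, where only 4 could be tested, and 6 to 8 when 1 library was left out. Over all genes, leaving out 1 library gave 819 to 3159 higher and 746 to 2999 lower calls; the highest counts came without WT replicate 3 and the lowest without E531R replicate 1. Over all lists, 78 genes were higher and 12 lower, and 65 to 96 and 9 to 24 when 1 library was left out, again highest without WT replicate 3. Of all tested genes 10.4% were higher and 9.53% lower, and 6.30% to 24.3% and 5.74% to 23.1% when 1 library was left out. The 78 include 7 of the 8 receptor genes, which were chosen for being higher. The causes were not tested. Without WT replicate 3, H2-D1 reversed (leaving out 1 library gave log2 fold changes of -0.13 to 0.10), and Ptpn11, Fcer1g and H2-K1 passed. Calls of Siglecg, Cd79b and Fcgr3 also changed when 1 given library was left out, as stated with their values. Those of Cd33 and Mag were lost when any 1 of several libraries was left out. That of Gata2 was lost without E531R replicate 1 or 2 (limma adjusted p = 0.0579 and 0.0568). Over its alternatives Siglecg had adjusted p = 0.0309 to 0.318. With the replicate number as a block, 1179 genes were higher and 1062 lower, and 7 of the 8 receptor genes were higher. Same-numbered libraries had correlated deviations of 0.0017, 0.192 and 0.238; not all 3 passed 0.1, so the numbers were not taken as pairs, and whether they mark a shared origin is not known. Depth limits Pira2, Siglec1, Siglecg and Gm14548, whose WT values rest on 4 to 25 reads.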
